A study of Mus musculus with 5 samples.

Results

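The genes of the circadian clock were followed across 5 liver arrays: Arntl, Clock, Per1, Per2, Per3, Cry1, Cry2, Nr1d1, Nr1d2 and Dbp. They were chosen by name, as every probe whose platform symbol, or an older synonym of it, is 1 of these 10 genes; all 10 were found, on 14 probes, among 16637 named genes. Each array held liver RNA of 1 group of mice on a C57BL/6 background, hybridised in 1 colour (Cy5) to the Phalanx Mouse OneArray. The groups were wild-type (WT) mice on a high-fat diet with nordihydroguaiaretic acid (NDGA, a lignan and lipoxygenase inhibitor) at 2.5 g per kg of food, WT mice on the high-fat diet alone, ob/ob mice, which lack functional leptin, on chow with NDGA at 2.5 g per kg of food, ob/ob mice on chow, and WT mice on chow, each kept on its diet for 16 weeks. The design text states 3 animals per group, without saying whether their RNA was pooled; age, sex and the hour at which livers were taken were not given in the sources used. With 1 array per group there is no replicate, no test and no error between mice, and every difference below is between a pair of arrays.

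The mammalian clock is a feedback loop. BMAL1 (encoded by Arntl) and CLOCK pair up on E-box sequences and switch on the Per, Cry, Nr1d and Dbp genes; PER and CRY proteins then return to silence BMAL1 and CLOCK, while the REV-ERB receptors, encoded by Nr1d1 and Nr1d2, silence Arntl through ROR elements, and DBP activates genes with D-boxes. In the liver of mice kept in light and dark, Dbp and Nr1d1 transcripts are known to peak in the light phase, Per2 around dusk and Arntl near dawn, with Dbp, Nr1d1 and Arntl among the most strongly cycling transcripts of the tissue. Livers taken at different hours are therefore known to differ most in these genes, with Arntl moving against Dbp.

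These elements are visible in the promoters of several of the genes measured. Windows from 250 bases before to 50 after a transcription start (RefSeq, GRCm38.p6) were given for 9 of the 10 genes, as 13 windows. Both strands were searched for the E-box CACGTG, the variant E-box CACGTT, the D-box TTATGTAA or TTACGTAA, and the ROR element, written as an A, any 2 bases and then TAGGTCA or TGGGTCA. The stretches below are shown because they place the genes on the loop; capitals mark the matches, and a match describes letters and is not a measured binding site.
Per1, chr11:69098763-69098808, plus strand: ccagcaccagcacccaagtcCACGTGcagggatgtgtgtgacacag
Cry1, chr10:85185089-85185153, minus strand: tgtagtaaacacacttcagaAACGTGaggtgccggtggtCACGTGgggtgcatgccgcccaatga
Cry2, chr2:92434210-92434255, minus strand: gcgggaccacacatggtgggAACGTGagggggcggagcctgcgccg
Nr1d1, chr11:98775380-98775425, minus strand: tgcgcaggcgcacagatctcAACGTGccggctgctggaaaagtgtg
Per3, chr4:151044796-151044890, minus strand: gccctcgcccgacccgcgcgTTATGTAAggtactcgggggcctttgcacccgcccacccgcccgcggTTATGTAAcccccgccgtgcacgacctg
Arntl, chr7:113207528-113207557, plus strand: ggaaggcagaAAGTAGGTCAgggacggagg

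Per1 held an E-box 166 bases before its start and Cry1 one 60 bases before its start, with the variant E-box on the other strand at 79 bases. Cry2 and Nr1d1 held the variant E-box, on the other strand, at 166 and 28 bases. Per3 held a pair of D-boxes, at 205 and 158 bases, and Arntl a ROR element 27 bases after the downstream of its annotated starts. The windows of Clock, Nr1d2 and Dbp held none of these letters. Over all 32851 windows, 7.15% held the E-box, 4.68% the variant E-box, 1.06% the D-box and 1.6% the ROR element.

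The deposited intensities had medians between 38.1 and 71.0, the highest on the array of ob/ob mice with NDGA, so arrays were quantile normalized and log2(intensity + 50) was compared; a gene is called higher or lower when it was at least 2-fold apart (log2 difference of at least 1) and expressed when its mean on the arrays compared reached the median of all genes. The brightest probe represents a gene. By the mean of the 5 arrays 7 of the 10 genes were expressed, while Arntl, Per1 and Cry1 were not. Among 835 genes with 2 expressed probes, probes of 1 gene differed with an SD per probe of 0.28 to 0.46 log2 units, which is the only measure of error here. Of the 10 hepatocyte markers 7 were measured and all were expressed, with Alb and Ahsg at the scanner's limit on most arrays.

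After quantile normalization most of the clock genes spanned less than 2-fold across the 5 arrays. Only Dbp and Nr1d1 spanned more than 2-fold from the lowest array to the highest, by 1.20 and 1.02 log2 units. Among the 8319 genes expressed by the mean of the 5 arrays, 10.2% spanned at least as much as Dbp and 16.4% as much as Nr1d1. The other expressed members spanned 0.68 (Per2), 0.67 (Clock), 0.52 (Nr1d2), 0.38 (Cry2) and 0.20 (Per3), spans that 40.8%, 42.3%, 62.6%, 81.1% and 97.3% of those genes reached. The dim members Arntl, Per1 and Cry1 spanned 0.80, 0.67 and 0.26.

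**Figure D1:**
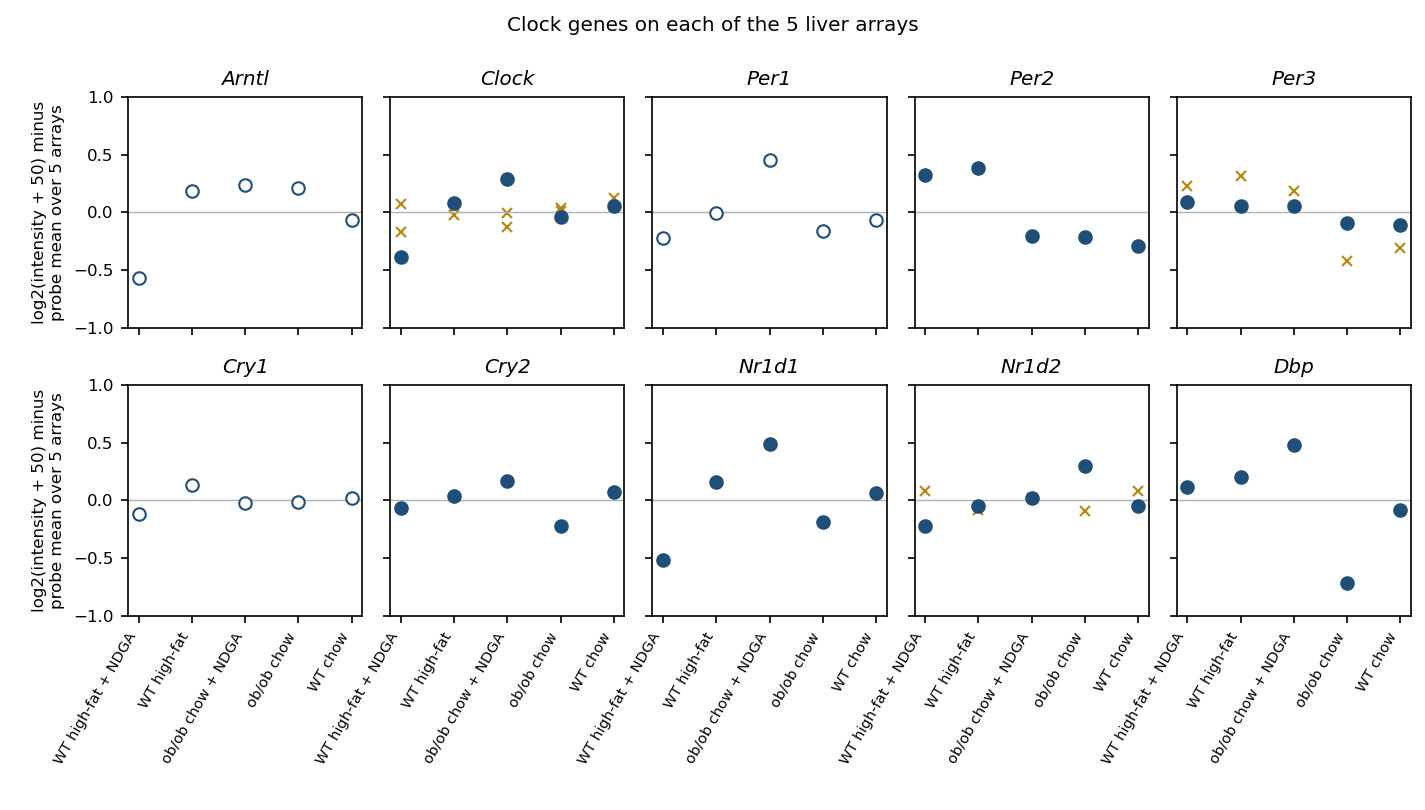
Each panel gives 1 clock gene on the 5 arrays, as log2(normalized intensity + 50) minus that probe's own mean over the arrays. Circles are the brightest probe (filled where expressed by the mean of 5 arrays, open where dim), crosses are other probes of the gene, and there is 1 array per group. Dbp is lowest on ob/ob chow, Nr1d1 and Arntl are lowest on WT high-fat diet with NDGA, and Per2 is higher on both high-fat arrays than on the chow arrays, an order that as deposited did not hold for ob/ob chow with NDGA (3624, against 3299 and 3483 on the high-fat arrays).

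**Figure D2:**
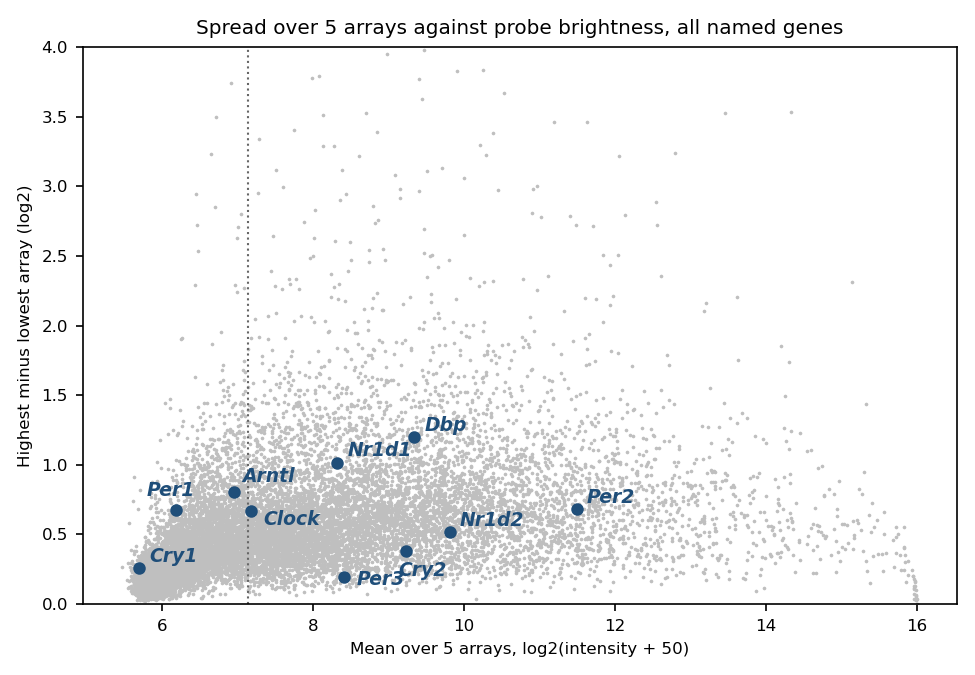
Each grey point is 1 of 16637 named genes, with its mean log2(intensity + 50) over 5 arrays on the x axis and its highest minus lowest array on the y axis; blue points are the 10 clock genes and the dotted line is the median brightness. The axis ends at 4, above which a further 18 genes lie. Dbp (1.20) and Nr1d1 (1.02) are the members with the widest span, well inside the cloud of genes of like brightness.

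The activators come first. Arntl (probe mMC004632), the non-redundant partner in the activating pair, read normalized intensities of 33.8 on WT high-fat diet with NDGA and 90.7 on WT high-fat diet. It read 96.4 on ob/ob chow with NDGA, 94.4 on ob/ob chow and 68.8 on WT chow. The WT array with high-fat diet and NDGA was thus the low one, and the other 4 lay between 68.8 and 96.4. Clock, its partner, was read by 3 probes, of which the brightest (mMR026549) gave 61.0 on WT high-fat diet with NDGA, 103 on WT high-fat diet, 127 on ob/ob chow with NDGA, 90.7 on ob/ob chow and 100 on WT chow. The same array was lowest, but the second probe of Clock (mMC022282) read 104 there against 94.2 on WT high-fat diet, so the probes went opposite ways. The third Clock probe read between 0.571 and 12.4, near background.

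Of the repressors, Per2 (probe mMC007980) was well above background on every array. Its normalized intensities were 3576 on WT high-fat diet with NDGA, 3724 on WT high-fat diet, 2461 on ob/ob chow with NDGA, 2441 on ob/ob chow and 2300 on WT chow. After quantile normalization both high-fat arrays stood above the 3 chow arrays, but as deposited the ob/ob array with NDGA read 3624, above WT high-fat diet with NDGA (3299) and WT high-fat diet (3483). The place of that array in the order of Per2 thus depended on the scaling, while ob/ob chow (1864) and WT chow (2105) were the low arrays as deposited too. Per3, a modulator of period length that is not needed for the rhythm itself, had a pair of expressed probes. The brighter (mMC016897) read 314 on WT high-fat diet with NDGA, 305 on WT high-fat diet, 305 on ob/ob chow with NDGA, 271 on ob/ob chow and 268 on WT chow. The dimmer (mMC000930) read 239, 257, 230, 135 and 150 on the same arrays in that order. It thus had ob/ob chow and WT chow as its low arrays too, but over a span of 0.73 where the brighter spanned 0.20.

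Per1, which glucocorticoids can induce directly, read only 12.5 on WT high-fat diet with NDGA, 22.3 on WT high-fat diet, 49.7 on ob/ob chow with NDGA, 15.2 on ob/ob chow and 19.4 on WT chow (probe mMC002214). The ob/ob array with NDGA was the single higher one, at a brightness that only 29.3% of genes fell below. Cry1 (probe mMC011236) read between -2.35 and 7.07 and gave no level of the gene: the probe of Hspa8, a chaperone made by every cell, also read between -5.00 and 2.69, so a reading near 0 on this array does not show that a gene was silent. Cry2 (probe mMC009393), the second cryptochrome, read 528 on WT high-fat diet with NDGA, 570 on WT high-fat diet, 628 on ob/ob chow with NDGA, 471 on ob/ob chow and 584 on WT chow. Its ob/ob chow array was the low one, and the whole span of 0.38 lay within the range of the spread between probes.

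Nr1d1 (probe mMC003881) encodes REV-ERB-alpha, which binds heme and represses Arntl and many lipid genes. It read 173 on WT high-fat diet with NDGA, 308 on WT high-fat diet, 400 on ob/ob chow with NDGA, 230 on ob/ob chow and 282 on WT chow. Like Arntl, its own target, it was lowest on WT high-fat diet with NDGA. Nr1d2 (probe mMR030429), which encodes REV-ERB-beta, read 723 on WT high-fat diet with NDGA, 815 on WT high-fat diet, 863 on ob/ob chow with NDGA, 1057 on ob/ob chow and 818 on WT chow. Normalized, it was highest on ob/ob chow, where Dbp was lowest, but as deposited it was highest on ob/ob chow with NDGA (1261, against 807 on ob/ob chow). Its second probe read between 1.14 and 7.64, near background.

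Dbp (probe mMC000774), the D-box activator and a direct output of the loop, read 656 on WT high-fat diet with NDGA, 693 on WT high-fat diet, 855 on ob/ob chow with NDGA, 343 on ob/ob chow and 562 on WT chow. The ob/ob chow array was the low one and the ob/ob array with NDGA the high one, with the 3 WT arrays between them. As deposited, before normalization, the ob/ob pair read 1249 with NDGA and 267 without.

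In WT mice on the high-fat diet, against WT mice on chow, Per2 was the member furthest apart, higher by 0.68 log2 units (1.61-fold), and 11.3% of expressed genes were at least as far apart in either direction. Per3 was at 0.16 by its brighter probe and 0.62 by the dimmer. Dbp was at 0.28, Arntl at 0.24, Cry1 at 0.13, Nr1d1 at 0.11, Per1 at 0.06, Clock at 0.03, Nr1d2 at 0.00 and Cry2 at -0.03. None of the 10 members, 7 of them expressed, was at least 2-fold apart, where 1.16% of all 16637 named genes were higher and 0.691% lower (2.13% and 1.35% of 8319 expressed genes). The median over the members was 0.12, against 0.00 over all genes. Macrophage markers moved with this contrast, all 12 of them being above 0 (median 0.78, summed normalized intensity 11818 on high-fat diet and 7451 on chow), as did 7 of 8 stellate cell markers (median 1.05, sums 6519 and 2716). Their part in the Per2 difference was not tested, and in whole liver more cells of a type and more RNA per cell cannot be told apart.

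**Figure D3:**
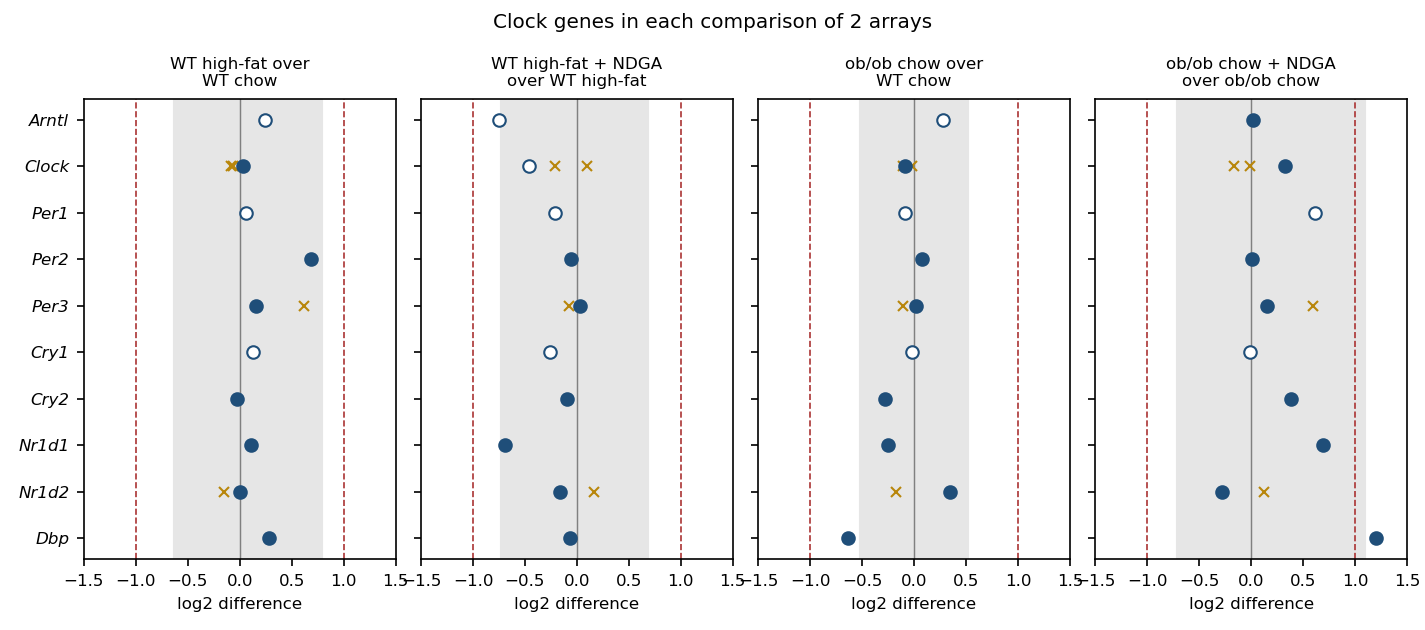
Each panel gives the log2 difference of 1 pair of arrays for the 10 clock genes. Filled circles are brightest probes expressed in that comparison, open circles are dim ones, crosses are other probes, the grey band holds the 5th to 95th percentile of expressed genes, and dashed lines mark 2-fold. Dbp with NDGA in ob/ob mice (1.20) is the single point past 2-fold.

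With NDGA on the high-fat diet, against the high-fat diet alone, 9 of the 10 members were below 0 and none was at least 2-fold apart. Arntl was furthest, at -0.75 on a probe that did not count as expressed, followed by Nr1d1 at -0.69, a distance that 11.0% of expressed genes reached in either direction. Clock was at -0.46 by its brightest probe and 0.10 by the second. Cry1 was at -0.26, Per1 at -0.21, Nr1d2 at -0.16, Cry2 at -0.10, Dbp at -0.07, Per2 at -0.06 and Per3 at 0.03. Among all named genes 0.493% were higher by 2-fold or more and 0.835% lower (0.914% and 1.57% of those expressed), and the members' median was -0.19 against -0.01 over all genes.

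Markers of other cell types differed between these arrays as well. Of 15 skeletal muscle markers, 9 were at least 2-fold higher with NDGA (median 1.23), with a summed normalized intensity of 12269 with NDGA and 2659 without; Ckm, the muscle creatine kinase, was at 4.69. All 12 macrophage markers were below 0 (median -0.88, sums 6255 and 11818), as were all 6 endothelial markers (median -0.30) and 6 of 8 stellate cell markers (median -0.88). Their part in the values of Arntl and Nr1d1 was not tested.

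In ob/ob against WT mice on chow, Dbp was the member furthest apart, lower by 0.64 log2 units (difference -0.64, 1.56-fold), and 6.46% of expressed genes were at least as far apart. Nr1d2 was at 0.35, Arntl at 0.28, Cry2 at -0.28, Nr1d1 at -0.25, Clock and Per1 at -0.09, Per2 at 0.08 and Per3 at 0.02, with Cry1 at -0.02. None was at least 2-fold apart, against 0.595% of all named genes higher and 0.986% lower (1.03% and 1.82% of expressed genes). The members' median was -0.06 and that of all genes 0.01. Dbp and Nr1d1 were below 0 and Arntl above 0, but Nr1d1 and Arntl were no further from 0 than the spread between probes of 0.28. Macrophage markers were above 0 for all 12 genes (median 0.81, sums 15227 in ob/ob and 7451 in WT). All 8 stellate cell markers were above 0 too (median 0.88, 4 at least 2-fold higher, sums 5731 and 2716), and the 6 endothelial markers lay between 0.00 and 1.21 (median 0.33, Lyve1 highest). The part of these markers in the Dbp difference was not tested.

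In ob/ob mice, chow with NDGA against chow alone gave the only member past 2-fold. Dbp was higher by 1.20 log2 units, or 2.30-fold, a distance that 3.79% of expressed genes reached in either direction. Nr1d1 was at 0.69, Per1 at 0.61, Cry2 at 0.38, Clock at 0.33, Per3 at 0.15 (0.60 by its dimmer probe), Arntl at 0.02, Per2 at 0.01, Cry1 at -0.01 and Nr1d2 at -0.28. The 1 member of 10 stands against 3.78% of all named genes that were higher by 2-fold or more and 0.283% that were lower (1 of 8 expressed members against 6.8% and 0.493% of the expressed ones). The members' median was 0.24 and that of all genes -0.02. The difference in Dbp depended on how the arrays were scaled: it was 2.04 without normalization, where the median of all genes was at 0.36, 1.58 with median centring, 1.42 after loess and 0.96 with an offset of 200.

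This array pair also differed in other markers. Cps1, a urea cycle enzyme and hepatocyte marker, was at 1.71, with the 7 hepatocyte markers at a median of 0.35. Of 15 skeletal muscle markers, 4 were at least 2-fold higher (median 0.27, sums 4208 with NDGA and 3542 without). Ckm led at 2.10, but only Mylpf of those 4, at 1.59, counted as expressed there. Another 3 of the 15 were below 0, Myh1 furthest at -0.67. Macrophage markers went both ways (median 0.08), with 2 of 12 at least 2-fold higher, Adgre1 at 1.09 and Mpeg1 at 1.03, and Vsig4 at -0.66. Their part in the Dbp difference was not tested, and Dbp is known to be made in many tissues.

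Both NDGA comparisons rest on separate arrays and can be read side by side. Nr1d1 was at 0.69 in ob/ob mice and -0.69 in WT mice, Dbp at 1.20 and -0.07, Per1 at 0.61 and -0.21, Clock at 0.33 and -0.46, and Arntl at 0.02 and -0.75. Per2 (0.01 and -0.06), Per3 (0.15 and 0.03) and Nr1d2 (-0.28 and -0.16) had gaps between the strains of 0.07, 0.11 and -0.12. These small gaps rested on the scaling: without normalization they were 1.02, 0.76 and 0.69, and with median centring 0.68, 0.42 and 0.35, where Nr1d2 in ob/ob mice was at 0.16. Gaps of at least 1 log2 unit between the NDGA differences were common, being found in 27.6% of 8319 expressed genes, and Nr1d1 (1.37) and Dbp (1.27) were the members with one. Diet also differed between the strains, so genotype and diet cannot be told apart here.

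Other parts of the clock were read for 15 of the 18 genes listed, and none was at least 2-fold apart in any comparison (medians -0.06, -0.05, -0.07 and -0.07 in the order above). Rora, which encodes the activator that competes with the REV-ERBs at ROR elements, read 87.8 on WT high-fat diet with NDGA and 187 on WT high-fat diet (difference -0.78). It read 282 on ob/ob chow with NDGA and 124 on ob/ob chow (0.93), and 118 on WT chow. Nfil3, whose product represses D-box genes, had the same signs, at -0.62 with NDGA in WT and 0.67 with NDGA in ob/ob mice. It did not count as expressed in the WT comparison. Rora and Nfil3 thus went the same way as Nr1d1 in both NDGA comparisons. So did genes outside the clock, such as Cps1 and Hpx. Gsk3b of this list went the opposite way in both, at 0.29 in WT and -0.45 in ob/ob mice. Csnk1d did so by its brighter probe (0.46 and -0.22), but the mean of its 2 probes in ob/ob mice was 0.00. In ob/ob mice both genes lay within the spread between probes of 0.46. The share of all genes with the signs of Nr1d1 was not computed.

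After quantile normalization the PAR-domain relatives of Dbp differed less than Dbp with NDGA in ob/ob mice. Tef, which binds the same D-boxes, was at -0.02 with NDGA in ob/ob mice and -0.28 in ob/ob against WT, and Hlf at 0.37 and 0.20. As deposited, Tef had the same order of arrays as Dbp, from 7559 on ob/ob chow to 15487 on ob/ob chow with NDGA. Hlf read 296 and 739 on those arrays as deposited. The medians of the deposited intensities rose in the order of Tef and Dbp too, from 38.1 to 71.0. The shared order can therefore come from array brightness alone and cannot show that Tef moved with Dbp. Npas2, a stand-in for Clock that is known to cycle in liver with Arntl, was read by dim probes, the brighter giving 42.6 on WT high-fat diet with NDGA, 46.1 on WT high-fat diet, 36.9 on ob/ob chow with NDGA, 72.4 on ob/ob chow and 50.1 on WT chow. It was highest on ob/ob chow, the array on which Dbp was lowest. Among the repressors Bhlhe40 and Bhlhe41, Bhlhe40 was at 0.55 in ob/ob against WT and 0.25 on high-fat diet, and Bhlhe41 at -0.46 on high-fat diet on a dim probe.

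Of the kinases and ligases that set the life of PER and CRY proteins, none measured was at least 2-fold apart. Csnk1d was at -0.59 on high-fat diet and 0.46 with NDGA on it, Csnk1e at -0.26 and 0.18, and Btrc at 0.23 and -0.13. Gsk3b, a kinase of several clock proteins, had the largest difference of the list, -0.98 in ob/ob against WT and -0.89 on high-fat diet. The 5th percentile of expressed genes was at -0.52 and -0.63 in those comparisons. Gsk3b read 2119 on WT chow and 755 to 1378 on the other 4 arrays. Arntl2, Rorb, Fbxl21 and Timeless read at most 38.6 on every array.

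Several genes that the clock or the daily feeding rhythm is known to drive in liver were past 2-fold. Of 19 measured, 14 were expressed in every comparison. The list was chosen with earlier results of these data known, so its counts beside those of all genes are a description only. On the high-fat diet 4 of the 14 were higher by 2-fold or more and 0 lower, where 2.13% of all expressed genes were higher and 1.35% lower (median over the 19 measured 0.54, over all genes 0.00). They were Alas1, the rate-limiting enzyme of heme synthesis, at 1.27, Rgs16, a fasting and feeding responsive G protein regulator, at 1.21, Gys2, the liver glycogen synthase, at 1.14, and Insig2, a REV-ERB target that holds back sterol synthesis, at 1.11. In ob/ob against WT mice 2 of the 14 were higher and 0 lower, against 1.03% and 1.82% of expressed genes (medians 0.12 and 0.01), Rgs16 at 1.30 and Cdkn1a, a cell cycle inhibitor under REV-ERB control, at 1.30.

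With NDGA in ob/ob mice 5 of these 14 genes reached a 2-fold higher level and 0 a 2-fold lower one, where 6.8% of all expressed genes were higher and 0.493% lower (medians 0.72 and -0.02). Without normalization 2703 of all expressed genes were higher there, in place of 566. The 5 genes were Cyp7a1, which controls bile acid synthesis and is known in rat as a DBP target, at 1.57, Noct, a rhythmic phosphatase, at 1.27, Gys2 at 1.26, Upp2, a uridine phosphorylase, at 1.15, and Nampt, which makes NAD, at 1.11. With NDGA on the high-fat diet 1 of the 14 was higher and 1 lower, against 0.914% and 1.57% of expressed genes (medians 0.00 and -0.01), Cyp7a1 at 1.53 and Tfrc, the transferrin receptor, at -1.03. Cyp7a1 was thus higher with NDGA in both, with normalized intensities of 1698 and 554 in WT mice with and without NDGA and 612 and 172 in ob/ob mice with and without NDGA, whereas Dbp was at 1.20 in ob/ob and -0.07 in WT mice, a gap of 1.27 that was not tested. Por, the electron donor of cytochromes P450, read 2158 with NDGA and 1162 without in ob/ob mice (0.86). Wee1, a cell cycle kinase driven from E-boxes, was at 0.94 there on a dim probe.

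**Figure D4:**
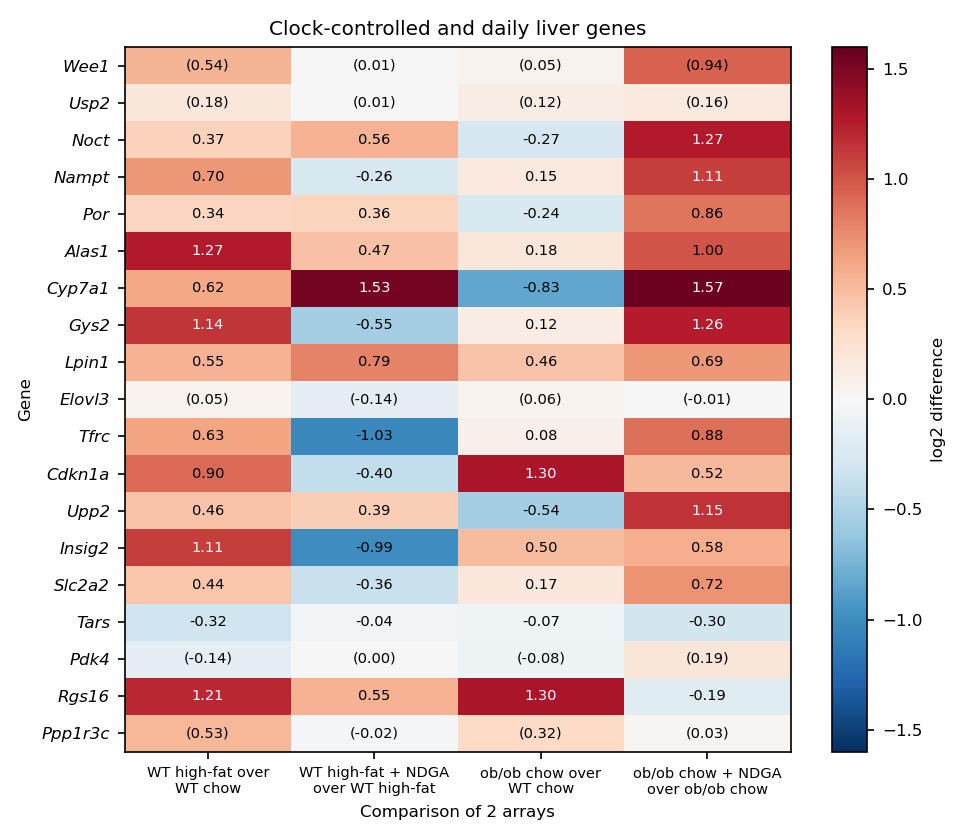
Colours and numbers give the log2 difference of 19 clock-controlled and daily liver genes (rows) in the 4 comparisons of 2 arrays (columns); values in parentheses are of genes not expressed in that comparison. The column of NDGA in ob/ob mice holds 16 values above 0, against 17 for the high-fat diet, 10 for NDGA in WT and 13 for ob/ob against WT.

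The genes whose 5-array profile lay nearest to that of Dbp, by the root mean square difference of profiles centred on their own mean, were Gne and Ivd (both 0.0882), Uhrf1bp1l (0.0999), Nr1i3 (0.106) and Ndufb3 (0.11) among 8318 expressed genes. The nearest other clock gene to Dbp was Cry2, at rank 871 (0.296), and the farthest was Nr1d2, at rank 5525 (0.536). For Arntl the nearest were Pfn1 (0.0352), Atp2c1 (0.0465), Zbtb22 (0.0516), Ifitm6 (0.0527) and Gorasp2 (0.0578) among 8319. Its nearest clock gene was Clock, at rank 215 (0.16), and Dbp lay at rank 7180 (0.533). With 5 arrays many genes lie this near by their number alone, so the ranks describe these arrays only.

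Split by arm, the members gave the following values beside the question of the hour of collection. On the high-fat diet the activators were at 0.24 (Arntl) and 0.03 (Clock) and the outputs Nr1d1, Nr1d2 and Dbp between 0.00 and 0.28. With NDGA on the high-fat diet Arntl was at -0.75, Clock at -0.46 and the outputs between -0.69 and -0.07. In ob/ob against WT Arntl was above 0 (0.28, on a dim probe) and Dbp and Nr1d1 below 0 (-0.64 and -0.25), with Clock at -0.09 and Nr1d2 at 0.35. In ob/ob mice with NDGA Arntl was at 0.02, Clock at 0.33 and the outputs between -0.28 and 1.20. The hour of collection was not given and its part in any of these values was not tested.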

How the data were processed

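The authors' deposited values are linear probe intensities of 29922 probes on 5 arrays, as judged from the values, which run from below 0 to above 65000; total RNA was labelled with Cy5 as aminoallyl aRNA per the labels' protocols. For the scanner, its background correction and any scaling, nothing is given in the sources used. Symbols of 21020 probes were updated through RefSeq (GRCm38.p6; 17558 current, 3410 by synonym, 52 kept); 0 probes had several symbols and 8902 were unnamed. The members and lists were chosen with earlier results of these data known.

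Arrays were quantile normalized and log2(value + 50) was taken with Python 3.11.15, numpy 2.4.6 and pandas 2.3.3. Differences understate the change of dim genes. Genes at least 2-fold apart were counted. All members, all other clock genes, and expressed genes at least 2-fold apart in the other lists were to be named; further values were added after they were seen. Steps were tested on simulated data. The alternatives were 3 other normalizations, offsets of 16 and 200, 2 other probe choices and 2 other filters. No test was possible with 1 array per group.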

Additional observations from a re-analysis of the deposited data

Results flagged for a closer look

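Nr1d1 and Dbp, among the expressed clock genes, had NDGA differences at least 1 log2 unit greater in ob/ob than in WT mice. Nr1d1 lay on opposite sides of 0, while Dbp in WT mice lay near 0. For Nr1d1 the gap was 1.37 (0.69 in ob/ob and -0.69 in WT), and for Dbp 1.27 (1.20 in ob/ob and -0.07 in WT). Each rests on 4 arrays with 1 per group, so the difference was not tested, and a gap of this size in either direction was found in 27.6% of expressed genes. Without normalization Dbp was at 2.04 in ob/ob and 0.01 in WT mice, and with an offset of 200 the gap of Nr1d1 was 0.93. Groups of 1 array allow no search for outlying samples.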

How the results depend on the processing

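Every member's difference was recomputed under each other normalization, offset and probe choice, 280 values in all. Of these, 263 moved by less than the spread between probes and 17 moved further (8 of them without normalization). The 263 include members with 1 probe, which the 2 other probe choices could not move. Only Dbp with NDGA in ob/ob mice was past 2-fold at the start, and it kept its sign. Smaller differences did change sign, such as Nr1d2 in that comparison, from -0.28 to 0.61 without normalization. For NDGA in ob/ob mice the members' median was 0.92 without normalization (0.24 with it), the count of members at least 2-fold higher was 3 (Dbp 2.04, Nr1d1 1.43, Cry2 1.22) in place of 1, and with an offset of 200 it was 0. The count of all expressed genes at least 2-fold higher there was 566, but 2703 without normalization, 1248 with median centring, 920 after loess, 249 with an offset of 200 and 310 under a stricter filter (75th percentile); the count lower was 41, but 5, 6, 27 and 25 under the first 4 of these. In ob/ob against WT 86 were higher and 151 lower, but 46 and 204 without normalization and 47 and 200 with median centring; 51 were higher with an offset of 200, and 100 lower under the stricter filter. With NDGA in WT mice 76 were higher and 131 lower, but 93 and 92 without normalization, 63 and 157 with median centring, 49 and 58 with an offset of 200, and 46 higher under the stricter filter. On high-fat diet 177 were higher, but 81 with an offset of 200 and 115 under the stricter filter. Dim members depended on the offset: at 16, Arntl with NDGA in WT was at -1.10, Cry1 at -0.76 and Per1 with NDGA in ob/ob at 1.07, none of them expressed; at 200, Arntl was at -0.31. No paired analysis was possible because each group has 1 array. Signal over background limits Arntl, Per1, Cry1 and Clock.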

Other observations

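Genes that respond to glucocorticoids, whose daily surge also sets Per1, were read for 9 of 10 listed. Mt2, a metallothionein, was higher by 1.88 with NDGA in ob/ob mice and by 1.86 on the high-fat diet, with normalized intensities of 9059 with NDGA and 2416 without in ob/ob mice, and 5751 on high-fat diet and 1551 on chow in WT mice. Fkbp5, a co-chaperone of the glucocorticoid receptor, was at 0.95 and 0.73 in those comparisons, where the list medians were 0.39 and 0.29. Dusp1, an early response phosphatase, was at 1.14 with NDGA in ob/ob mice on a dim probe that read 76.1 with NDGA and 7.07 without. With NDGA in WT mice Fkbp5 was at 0.00 and Mt2 at 0.15, and Mt1, a second metallothionein, at 0.65 on a probe near the scanner's limit (normalized intensities of 65866 with NDGA and 42061 without). Not all of the list went one way: on the high-fat diet Tat, a tyrosine aminotransferase, was at -0.60 on a dim probe. Sgk1, a kinase, was at -0.22 there by the brighter of its 2 probes, also dim, but at 0.02 by their mean.

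Genes that follow the daily rhythm of body temperature were read for 8 of 11 listed, 3 of them expressed. Rbm3, an RNA-binding protein induced by cold, read 2436 on WT high-fat diet with NDGA and 1347 on WT high-fat diet (0.83). It read 1244 on ob/ob chow with NDGA and 2319 on ob/ob chow (-0.87), and 2332 on WT chow, so its NDGA differences had the signs opposite to those of Nr1d1 (-0.69 in WT and 0.69 in ob/ob). Cirbp, its close relative, was at 0.03 in WT and -0.38 in ob/ob mice. Hsp90ab1, a chaperone and the third expressed gene, was at -0.07 in WT and 0.09 in ob/ob mice by its brightest probe. By the mean of its 3 probes it was at -0.64 and 0.72. By the brightest probe none of the 3 genes was at least 2-fold apart in any comparison. The list median, also by brightest probes, lay furthest from 0 with NDGA in ob/ob mice (-0.19).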
